A study of Homo sapiens with 6 samples.

Results

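The B4GALT genes encode the 7 human β1,4-galactosyltransferases, B4GALT1 to B4GALT7. They were examined in A549 cells, an established human lung adenocarcinoma line, after knockdown of CEP20, a protein of centrioles and centriolar satellites. Members were chosen by gene symbol, and all 7 were found among the 60624 genes of the table. The family was picked with results of siCEP20 against siCTR known, so the differences of its members are a description. No p-value is printed for a member. Where members are said to pass a threshold, also under other settings, that too only describes them. RNA was sequenced from 3 siCEP20 samples, which received small interfering RNA (siRNA) against CEP20, and 3 siCTR samples, which received control siRNA, each for 3 days. Both groups were otherwise the same A549 line with no further allele or agent named. According to the labels, cells grew in F-12K, RNA was extracted with a column kit and libraries were made with NEBNext reagents. The paper's methods instead name DMEM, TRIzol and stranded poly(A) libraries, and 1 label field speaks of plasmid transfection. Which CEP20 siRNA was used for the sequenced samples is not given in the sources used here. The model is 1 cell line with 1 control group, and CEP20 RNA was lowered only in part, as given below. The paper describes knockdown of the CEP20 protein in A549 as efficient by western blot, without tying that blot to the sequenced samples.

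β1,4-galactosyltransferases are membrane enzymes of the Golgi. They move galactose from UDP-galactose onto a sugar at the end of a growing glycan, most often N-acetylglucosamine, which gives N-acetyllactosamine (LacNAc), the unit that is later extended, sialylated or fucosylated. B4GALT1 is the main enzyme for N-glycans and, with α-lactalbumin, makes lactose in the mammary gland. B4GALT2 and B4GALT3 also act on N-glycans, B4GALT4 favours sulfated N-acetylglucosamine as found in keratan sulfate, B4GALT5 and B4GALT6 make lactosylceramide, and B4GALT7 adds the first galactose of the linker that joins glycosaminoglycan chains to proteoglycans.

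The bases before the annotated starts of 3 members are shown because these members differ in response, as described further on. B4GALT1 and B4GALT4 were the members with the largest differences between groups, and B4GALT5, the second most abundant member, is shown beside them. The sequences are RefSeq's on GRCh38.p14, 250 bases upstream of the start, written 5′ to 3′ on the strand of the gene. Capitals mark GGGCGG on either strand, the GC box that Sp1-type factors are known to bind. They lie on the minus strand at chr9:33167337-33167586 for the first of the B4GALT1 starts, at chr3:119240879-119241128 for B4GALT4 and at chr20:49713879-49714128 for B4GALT5.
B4GALT1: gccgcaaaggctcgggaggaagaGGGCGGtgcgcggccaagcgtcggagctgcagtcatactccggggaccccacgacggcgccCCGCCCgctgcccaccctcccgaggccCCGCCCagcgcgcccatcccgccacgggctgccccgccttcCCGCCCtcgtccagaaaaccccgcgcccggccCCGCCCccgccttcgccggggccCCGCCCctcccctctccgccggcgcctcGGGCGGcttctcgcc
B4GALT4: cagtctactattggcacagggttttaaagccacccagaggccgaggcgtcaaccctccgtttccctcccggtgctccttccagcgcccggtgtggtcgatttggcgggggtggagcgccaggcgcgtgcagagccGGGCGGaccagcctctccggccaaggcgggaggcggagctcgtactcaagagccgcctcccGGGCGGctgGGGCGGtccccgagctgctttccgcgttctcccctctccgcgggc
B4GALT5: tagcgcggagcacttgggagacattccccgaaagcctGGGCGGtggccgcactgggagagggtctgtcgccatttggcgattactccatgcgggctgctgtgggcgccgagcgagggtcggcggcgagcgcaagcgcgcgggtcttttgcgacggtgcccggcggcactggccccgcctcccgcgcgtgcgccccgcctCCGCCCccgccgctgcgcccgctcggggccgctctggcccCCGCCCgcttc

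The B4GALT1 window held 7 copies of GGGCGG and was 80.0% G or C. The window of its second RefSeq start, which overlaps the first, held 6 copies. B4GALT4 and B4GALT5 each held 3 copies, B4GALT7 held 5, and the windows of B4GALT2 and B4GALT3 held from 0 to 2. GGGCGG was present in 42.6% of 35116 RefSeq promoter windows of the same length, and 3 or more copies in 13.9%. A TATA box (TATAAA, in 10.7% of windows) and an AP-1 site (TGANTCA, in 6.57%) were in none of the 9 windows of 6 members. CCAAT (in 32.0% of windows) was in that of B4GALT4 alone. The E-box CACGTG (6.34%) and the ETS core CCGGAA (14.5%) were each in 1 B4GALT2 window, and TGACNNNGC, the core of the antioxidant response element (10.9%), was in 1 B4GALT3 window. Both strands were searched for each motif. These are matches of letters, not sites shown to be bound, and overlapping copies were each counted. The deposited values are per gene, so the output of the 2 B4GALT1 starts cannot be told apart.

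CEP20 (ENSG00000133393) was at 29.2, 30.5 and 35.1 TPM (transcript abundance per length, scaled to the same total in each library) in the siCTR libraries and at 16.2, 15.3 and 17.3 in the siCEP20 libraries, so 51.4% of the control mean was left (limma on log2(TPM + 1), adjusted p = 0.000205). Such values hold no depth, and the depth of the libraries is unknown here. Genes at 1 TPM or more numbered 14429 to 14600 in siCTR and 14851 to 14987 in siCEP20 libraries. The median log2 fold change of the 14778 genes tested, those with a mean of at least 1 TPM, was 0.13, and it was close to 0 (-0.0059) after median-of-ratios scaling. Differences below are on the log2(TPM + 1) scale, and a value called relative has the 0.13 subtracted. Genes called higher, with an adjusted p under 0.05 and a fold change over 1.5, made up 11.2% of those tested, and genes called lower, with a fold change under 0.67, made up 4.61%. Those shares were 5.91% and 7.6% with median-of-ratios scaling, 6.25% and 6.88% with quantile normalization, and 6.69% and 5.62% after correction for transcript length and GC content. Keratins 7, 8 and 18, ALDH1A1 and AKR1B10, all known to be abundant in A549, ranged from 874 to 4506 TPM, while EPCAM was at 0.834 to 1.24 TPM in siCTR and 3.01 to 3.85 TPM in siCEP20 libraries.

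B4GALT1 was the most abundant member in both groups and the member that differed most between them. It (ENSG00000086062, hg38 chromosome 9 from 33104082 to 33167356, minus strand, 6 exons in its main transcript) was at 139.8, 145 and 151 TPM in siCTR libraries 1 to 3 and at 394, 416 and 441 TPM in siCEP20 libraries 1 to 3. Each siCEP20 library was far above every siCTR library, and the libraries within a group lay close together. The means were 145 ± 5.40 and 417 ± 23.5 TPM (SD, n = 3 each), a ratio of 2.87. On the log2(TPM + 1) scale the difference was 1.52 (standard error 0.0593), or 1.38 after subtracting the median of the tested genes. B4GALT1 ranked 54 of 14778 by this difference. A long noncoding RNA on the opposite strand, B4GALT1-AS1, was listed at 0.26 TPM or less in every library.

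**Figure D1:**
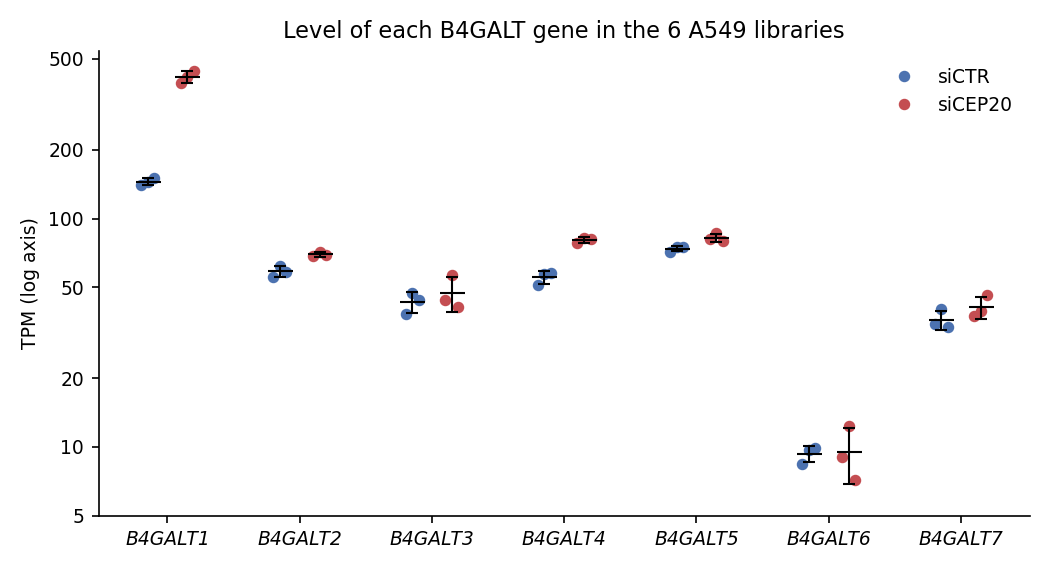
Level of each B4GALT gene in TPM (log axis) in the 3 siCTR (blue) and 3 siCEP20 (red) libraries, with the mean as a bar and the SD as whiskers. B4GALT1 stands at 139.8 to 151 TPM in siCTR and 394 to 441 TPM in siCEP20, while the other 6 genes lie between 7.19 and 86.3 TPM in all libraries.

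These are bulk samples, in which a change in the share of cells with a transcript and a change of its level per cell cannot be told apart. Of 6 markers of leukocytes, endothelium and fibroblasts, PTPRC, CD3E, PECAM1, VWF and COL3A1 were at 0.19 TPM or less in each library, CD3E at 0 in all of them. COL1A1, which encodes a collagen chain, rose from 5.52 ± 0.33 to 18.9 ± 1.15 TPM. The list summed to 5.34 to 6.04 TPM in siCTR and 17.7 to 19.8 TPM in siCEP20 libraries, nearly all of it COL1A1. It moved in the same direction as B4GALT1, and its part in the B4GALT1 values was not tested.

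Of the other N-glycan enzymes, B4GALT2 (ENSG00000117411, chromosome 1 from 43978943 to 43991170, plus strand) was at 55.6, 62.1 and 58.2 TPM in siCTR and at 68.4, 71.4 and 69.0 TPM in siCEP20 libraries. Its groups did not overlap, but the gap between them was small next to that of B4GALT1. Means of 58.6 ± 3.27 and 69.6 ± 1.57 TPM gave a ratio of 1.19 and a log2 difference of 0.24 (standard error 0.0635), or 0.11 relative to the median. B4GALT3 (ENSG00000158850, chromosome 1 from 161171310 to 161177968, minus strand) was at 38.1, 47.3 and 44.0 TPM in siCTR and at 43.8, 56.3 and 41.0 TPM in siCEP20 libraries. These groups overlapped, since siCEP20 library 2 was the highest of all and siCEP20 library 3 was below 2 of the siCTR libraries. The log2 difference of 0.11 (standard error 0.128) was smaller than its error and -0.02 relative to the median, and it turned to -0.04 with median-of-ratios scaling. The whole B4GALT3 gene lies over PPOX, a gene of heme synthesis on the opposite strand, with 1118 bases of shared exon. PPOX was at 14.0 to 18.2 TPM in siCTR and 13.5 to 14.2 TPM in siCEP20 libraries. Whether strand was used in the authors' quantification is not given in the sources used here, so reads of such pairs may not have been kept apart.

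B4GALT4 was the member with the second largest difference. It (ENSG00000121578, chromosome 3 from 119211732 to 119240946, minus strand) was at 51.4, 57.0 and 57.7 TPM in siCTR and at 77.9, 82.3 and 81.5 TPM in siCEP20 libraries. Again all siCEP20 libraries were above all siCTR libraries, by more than the range within either group. Its means were 55.3 ± 3.47 and 80.6 ± 2.36 TPM, a ratio of 1.46, and its log2 difference was 0.54 (standard error 0.0666), or 0.40 relative to the median. That is just short of the 0.585 that corresponds to the fold change threshold of 1.5, so B4GALT4 was not called. B4GALT4-AS1, on the opposite strand, was at 0.17 TPM or less in each library.

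For the lactosylceramide enzymes, differences were small. B4GALT5 (ENSG00000158470, chromosome 20 from 49632945 to 49713878, minus strand) was at 71.5, 74.9 and 75.0 TPM in siCTR and at 81.0, 86.3 and 80.1 TPM in siCEP20 libraries. The groups did not overlap, yet the log2 difference of 0.16 (standard error 0.0588) was 0.03 relative to the median, and it was -0.01 after correction for length and GC content. B4GALT6 (ENSG00000118276, chromosome 18 from 31622246 to 31685836, minus strand) was the least abundant member, at 8.45, 9.68 and 9.87 TPM in siCTR and at 8.99, 12.4 and 7.19 TPM in siCEP20 libraries. Its siCEP20 libraries spread on both sides of the siCTR libraries, with a log2 difference of -0.0010 (standard error 0.171), or -0.13 relative to the median, whose sign changed with the library left out. B4GALT5 exceeded B4GALT6 by 7.93 ± 0.47 times in siCTR and 9.04 ± 2.09 times in siCEP20 libraries, a difference within the spread of the siCEP20 libraries. An unnamed long noncoding RNA, ENSG00000259985, overlaps B4GALT6 on the opposite strand and was at 2.26 to 3.10 TPM in siCTR and 1.92 to 2.12 TPM in siCEP20 libraries.

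B4GALT7, the linker enzyme (ENSG00000027847, chromosome 5 from 177600132 to 177610330, plus strand), was at 34.5, 40.1 and 33.4 TPM in siCTR and at 37.4, 39.2 and 46.0 TPM in siCEP20 libraries. Here too the groups overlapped, because siCTR library 2 was above 2 of the siCEP20 libraries. The log2 difference was 0.18 (standard error 0.101), or 0.05 relative to the median.

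Counted over the family, 3 of 7 members (B4GALT1, B4GALT2 and B4GALT4) were higher at an adjusted p under 0.05 from limma, beside 30.2% of all tested genes, and 0 were lower, beside 13.2%. At an unadjusted p under 0.05 from limma there were 4 higher and 0 lower, beside 5293 and 2335 of all 14778 tested genes. B4GALT1 alone was called higher, 1 of 7 members (14.3%) beside 11.2% of all tested genes. Groups did not overlap in 4 members, all with siCEP20 above siCTR, as was the case for 38.4% of tested genes, while 17.0% of tested genes had all siCEP20 values below all siCTR values. The median log2 difference of the 7 members was 0.18, or 0.05 relative to all tested genes. The family was picked with this contrast known, and these counts only describe it.

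**Figure D2:**
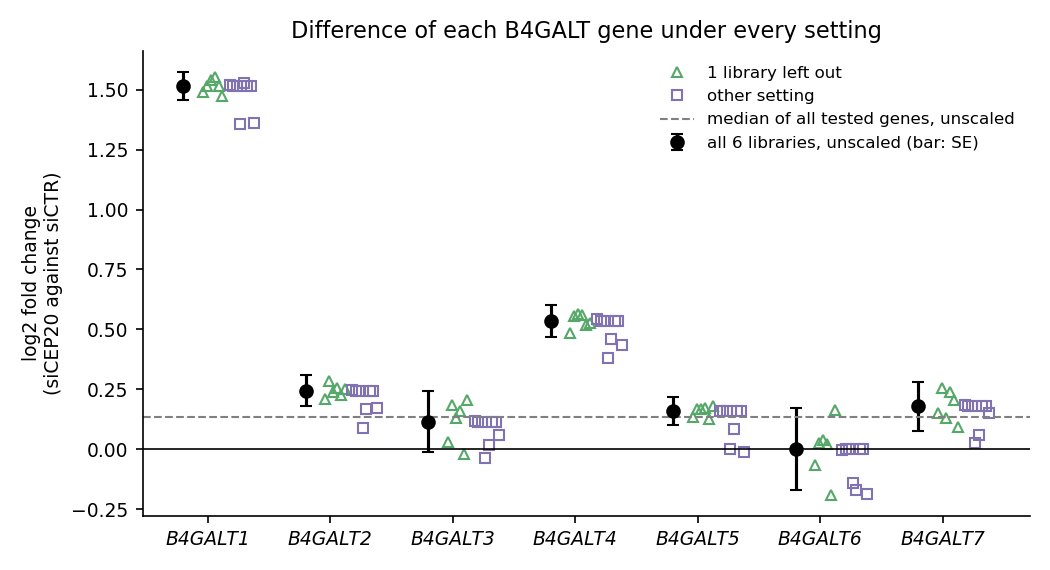
Log2 difference (siCEP20 against siCTR) of each B4GALT gene with all 6 libraries (black, bar: standard error), with 1 library left out (triangles) and under other settings (squares); the dashed line is the median of all tested genes, 0.13. B4GALT1 stays between 1.36 and 1.56 and B4GALT4 between 0.38 and 0.57, while B4GALT3, B4GALT5 and B4GALT6 reach 0 or below under some settings.

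Since TPM is per transcript length, levels can be set side by side between members. In siCTR libraries the order of the means was B4GALT1, B4GALT5, B4GALT2, B4GALT4, B4GALT3, B4GALT7 and B4GALT6. Neighbours in that order did not overlap, except B4GALT2 with B4GALT4 and B4GALT3 with B4GALT7. In siCEP20 libraries B4GALT4 stood above B4GALT2 without overlap, and its range overlapped that of B4GALT5. The rest of the order was the same, and B4GALT3 and B4GALT7 again overlapped. All members but B4GALT6 were above 14.6 TPM, the median siCTR level of the tested genes, in every library.

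The make-up of the family differed accordingly. B4GALT1 took 35.0%, 33.2% and 35.1% of the summed B4GALT TPM in siCTR libraries and 55.4%, 54.4% and 57.6% in siCEP20 libraries. Its share was thus above that of the other 6 together in each siCEP20 library and below it in each siCTR library. The means were 34.5% ± 1.07 and 55.8% ± 1.61, which are 21.3 percentage points apart. Such a share does not depend on the scale of a library. B4GALT5 went from 17.5% to 11.0% of the sum, B4GALT2 from 13.9% to 9.33%, B4GALT4 from 13.1% to 10.8%, and B4GALT6 from 2.21% to 1.28%. The summed TPM of all 7 genes was 399, 436 and 429 in siCTR and 711, 764 and 766 in siCEP20 libraries, a ratio of 1.77. Without B4GALT1 the sum was 276 ± 15.8 and 330.04 ± 15.9 TPM, a ratio of 1.20.

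**Figure D3:**
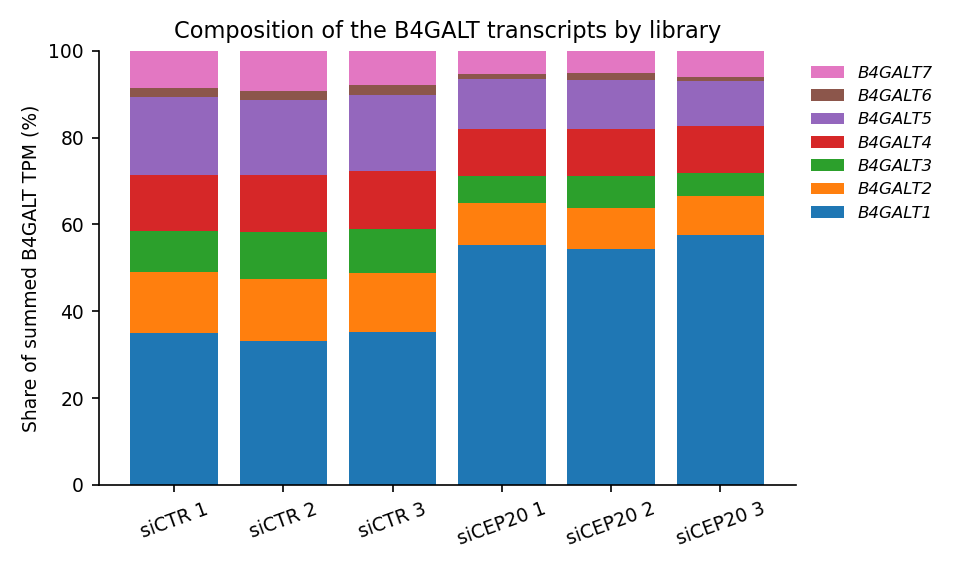
Share of each B4GALT gene in the summed TPM of the 7 genes, in percent, for each library. B4GALT1, at the bottom of each bar, fills 33.2% to 35.1% in siCTR and 54.4% to 57.6% in siCEP20 libraries.

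The lists of genes around the B4GALT reaction were chosen with earlier results of these data known. Genes named from them are mostly those with the smallest adjusted p, so their p-values are a description too. The reaction of the B4GALT enzymes needs UDP-galactose, as donor. Of 9 tested supply genes, 1 rose (11.1%, beside 30.2% of all tested genes) and 4 fell (44.4%, beside 13.2%) at an adjusted p under 0.05, with a median log2 difference of 0.00018, or -0.13 relative to all tested genes. GALK1, the galactokinase, fell from 76.9 ± 3.26 to 54.8 ± 1.26 TPM (-0.48, relative -0.61, limma, adjusted p = 0.000546). SLC35A2, the transporter that brings UDP-galactose into the Golgi, rose from 71.4 ± 5.46 to 93.8 ± 2.98 TPM (0.39, relative 0.26, limma, adjusted p = 0.00282). LALBA, which encodes α-lactalbumin, the lactose synthase partner of B4GALT1, was listed at 0 in all 6 libraries.

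On the N-glycan side, where B4GALT1, B4GALT2 and B4GALT3 act, 8 of 12 listed branching genes were tested, of which 1 rose and 1 fell (12.5% each, beside the same 30.2% and 13.2% of all tested genes, median -0.0044 and relative -0.14). MGAT1, which starts the hybrid and complex branches that these enzymes later galactosylate, fell from 119 ± 5.61 to 77.7 ± 7.13 TPM (-0.61, relative -0.74, limma, adjusted p = 0.000605). B4GALT1 was 1.22 ± 0.0894 times as abundant as MGAT1 in siCTR libraries and 5.41 ± 0.72 times in siCEP20 libraries. This ratio was chosen after values were seen and sets a gene that rose beside a gene that fell, so it only restates both. MGAT4B, a branching enzyme, rose from 173 ± 3.65 to 204 ± 8.39 TPM (0.24, relative 0.11, limma, adjusted p = 0.00774), but was at 0.08 with an adjusted p of 0.241 from limma after median-of-ratios scaling. MGAT2, which starts the second branch, was at 47.1 ± 3.42 and 41.7 ± 1.96 TPM (limma, adjusted p = 0.102). Among 11 tested genes that extend or cap LacNAc, the product of B4GALT1 to B4GALT4, 2 rose and 2 fell at an adjusted p under 0.05 (18.2% each, beside 30.2% and 13.2%, median 0.29 and relative 0.16). B3GNT3, which extends LacNAc, rose from 4.66 ± 0.54 to 7.40 ± 0.49 TPM (0.57, relative 0.44, limma, adjusted p = 0.00482). SLC35A1, the CMP-sialic acid transporter, fell from 11.9 ± 1.46 to 7.98 ± 0.0775 TPM (-0.52, relative -0.65, limma, adjusted p = 0.00477). ST3GAL3, a sialyltransferase, rose from 5.60 ± 0.45 to 7.69 ± 0.51 TPM (0.40, relative 0.26, limma, adjusted p = 0.0167), but missed the threshold with quantile normalization (0.22, adjusted p = 0.0757) and without siCEP20 replicate 2 (adjusted p = 0.062). For keratan sulfate, the chain that B4GALT4 serves, only B3GNT7 and CHST1 of 5 listed genes passed the filter. Neither passed the test, with adjusted p-values of 0.0907 and 0.115 from limma. At an unadjusted p under 0.05 there were 1 higher and 0 lower, beside 5293 and 2335 of all 14778 tested genes.

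Around B4GALT5 and B4GALT6, 10 of 14 glycosphingolipid genes were tested, of which 3 rose and 3 fell (30.0% each, beside 30.2% and 13.2%, median -0.0216 and relative -0.15). UGCG, which makes the glucosylceramide that both enzymes use, was at 21.2, 24.5 and 23.4 TPM in siCTR and at 22.6, 24.8 and 23.2 TPM in siCEP20 libraries, and its groups overlapped like those of B4GALT6. A4GALT, which turns lactosylceramide into globotriaosylceramide, rose from 22.8 ± 2.03 to 36.8 ± 1.93 TPM (0.67, relative 0.54, limma, adjusted p = 0.000567). GLTP, which carries glycolipids, fell from 18.4 ± 1.57 to 13.4 ± 0.66 TPM (-0.43, relative -0.56, limma, adjusted p = 0.00603).

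The linker on which B4GALT7 acts is built in a row by XYLT1 or XYLT2, B4GALT7, B3GALT6 and B3GAT3. Of 13 tested genes for the linker and the start of the chains, 3 rose and 3 fell (23.1% each, beside 30.2% and 13.2%, median 0.13 and relative -0.0041). The enzymes before and after B4GALT7 differed in direction. XYLT2, which places the xylose that B4GALT7 uses, rose from 22.2 ± 1.48 to 34.5 ± 1.23 TPM (0.61, relative 0.48, limma, adjusted p = 0.000523). B3GALT6, which adds the next galactose, fell from 25.9 ± 1.22 to 21.5 ± 1.52 TPM (-0.26, relative -0.39, limma, adjusted p = 0.0317), and passed the test in 9 of 14 alternatives. B3GAT3, which completes the linker with glucuronic acid, fell from 73.0 ± 3.98 to 45.7 ± 7.09 TPM (-0.67, relative -0.81, limma, adjusted p = 0.00164). EXTL2, a transferase that acts on the finished linker, fell from 9.94 ± 0.41 to 5.62 ± 0.80 TPM (-0.73, relative -0.86, limma, adjusted p = 0.00147).

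**Figure D4:**
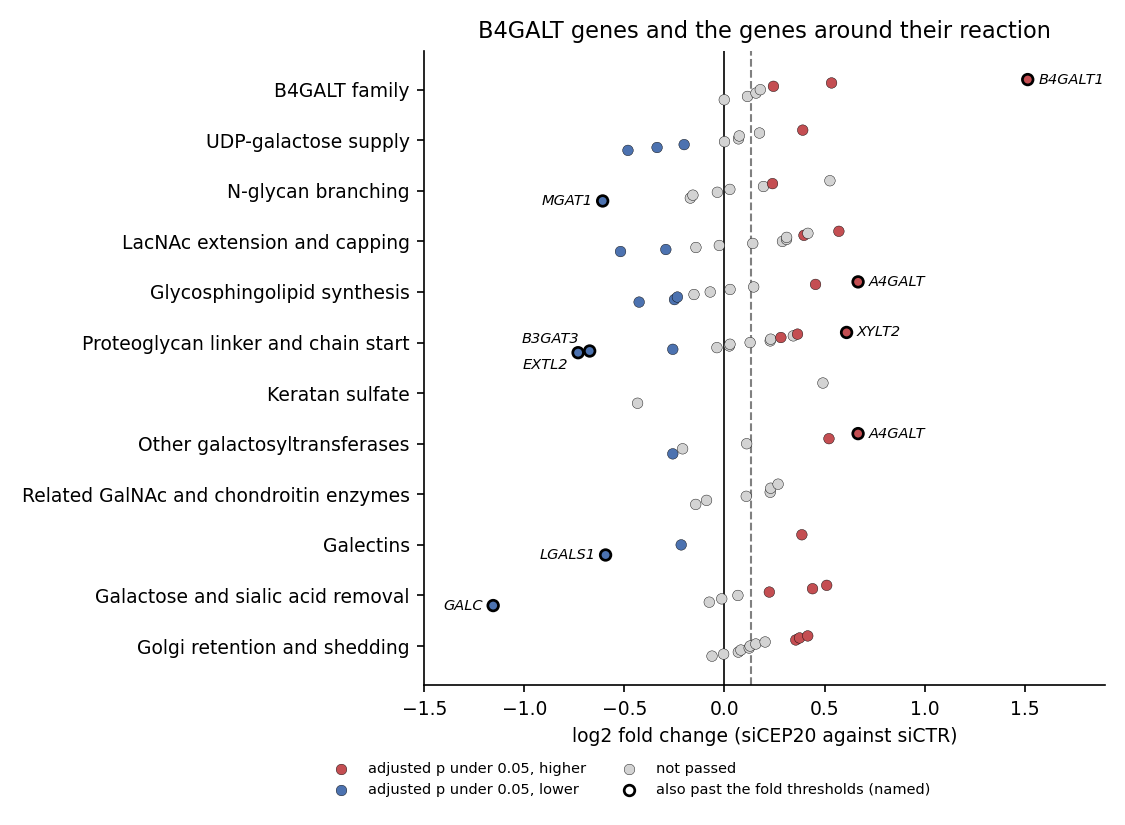
Log2 difference (siCEP20 against siCTR) of the B4GALT genes and of the tested genes in 11 lists of genes around their reaction, coloured by the limma test, with the genes past the fold thresholds named and genes not reported here left out. The solid line is 0 and the dashed line the median of all tested genes, 0.13. B4GALT1, at 1.52, lies to the right of every gene of the other lists, and GALC, at -1.16, lies farthest to the left.

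Other transferases and the genes that read or undo the B4GALT products gave further values. Of 5 tested galactosyltransferases outside the family, 2 rose (40.0%, beside 30.2%) and 1 fell (20%, beside 13.2%). C1GALT1, the core 1 O-glycan enzyme, rose from 8.52 ± 0.45 to 12.7 ± 0.53 TPM (0.52, relative 0.39, limma, adjusted p = 0.00206). None of 6 related N-acetylgalactosamine and chondroitin enzymes passed the limma test, the smallest adjusted p being 0.0585 for B4GALNT4. At an unadjusted p under 0.05, 3 were higher and 1 lower, beside 5293 and 2335 of all 14778 tested genes. Galectins bind the LacNAc that B4GALT1 makes, and 3 of 7 listed galectins were tested. Of these 1 was higher (33.3%, beside 30.2% of all tested genes) and 2 were lower (66.7%, beside 13.2%) at an adjusted p under 0.05. LGALS3 (adjusted p = 0.0498 from limma) passed the test in 4 of 14 alternatives only. LGALS1, the most abundant, fell from 1383 ± 27.7 to 916 ± 26.6 TPM (-0.59, relative -0.73, limma, adjusted p = 6.8e-05), and LGALS8 rose from 23.6 ± 1.47 to 31.1 ± 1.06 TPM (0.39, relative 0.25, limma, adjusted p = 0.00406), though after the length and GC correction its adjusted p was 0.0517.

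Among 8 enzymes that remove galactose or sialic acid, 4 rose (50%, beside 30.2% of all tested genes) and 1 fell (12.5%, beside 13.2%), with a median of 0.15 and relative 0.01. GALC, which takes the galactose from galactosylceramide in lysosomes, was at 28.8, 35.4 and 30.3 TPM in siCTR and at 11.5, 15.5 and 13.9 TPM in siCEP20 libraries, the lowest log2 difference of all lists at -1.16 (relative -1.29, limma, adjusted p = 0.00026). GLB1L, a β-galactosidase-like gene, rose from 8.31 ± 0.22 to 12.3 ± 0.89 TPM (0.51, relative 0.38, limma, adjusted p = 0.00264). A list of 11 genes covered the retention or shedding of Golgi enzymes such as the B4GALT proteins. At an unadjusted p under 0.05 from limma, 4 were higher and 0 lower, beside 5293 and 2335 of all 14778 tested genes. At an adjusted p under 0.05, 3 rose and 0 fell (beside 13.2% that fell of all tested genes). The 27.3% that rose stood near the 30.2% of all tested genes. They were COG1, COG6 and COG7 of the 8 listed subunits of the conserved oligomeric Golgi complex, with log2 differences of 0.38, 0.42 and 0.36 (limma, adjusted p = 0.00936, 0.0226 and 0.00875). Relative to the median these were 0.24, 0.28 and 0.22. COG6 passed the test in 7 of 14 alternatives, and COG7 missed it with median-of-ratios scaling and with quantile normalization (adjusted p = 0.0745 and 0.0645 from limma). SPPL3, the protease that sheds B4GALT1, was at 25.7 ± 0.52 and 27.3 ± 0.22 TPM (limma, adjusted p = 0.335).

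Without duplicates these lists held 111 genes, of which 82 were tested. At an adjusted p under 0.05, 19 rose (23.2%, beside 30.2% of all tested genes) and 16 fell (19.5%, beside 13.2%). With the fold thresholds, 3 were called higher (3.66%, beside 11.2% of all tested genes) and 6 lower (7.32%, beside 4.61%). Their median was 0.08, or -0.05 relative to all tested genes. The difference of B4GALT1 was larger than that of each of these 82 genes. With median-of-ratios scaling or quantile normalization 0 were called higher by limma, beside 5.91% and 6.25% of all tested genes. A4GALT and XYLT2, which then lost their call, kept an adjusted p under 0.05. With 1 library left out the number called higher ranged from 1 (without siCTR replicate 1) to 5 (without siCTR replicate 2). No share of all tested genes is set beside these counts, so they are not read as a shift of the partner genes. Many listed genes overlap an expressed gene, among them A4GALT (CYB5R3, same strand), and SLC35A2, MGAT4B, LGALS8, GLB1L, COG1 and COG7 (opposite strand).

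Over the 6 libraries, the tested genes whose values followed those of B4GALT1 most closely were TUBA4A, CCN1 and DIRAS3. The measure was the root mean square difference of log2(TPM + 1) centred on the siCTR mean, which was 0.0694, 0.0741 and 0.0746. TUBA4A, an α-tubulin, was at 126 ± 10.5 and 368 ± 43.3 TPM, beside 145 and 417 TPM for B4GALT1. Tubulin genes are near-identical in part and TUBA4A overlaps STK16, so its reads are less certain. CCN1, a secreted matrix-associated protein, was at 85.4 ± 7.19 and 236 ± 11.0 TPM, and DIRAS3, a small GTPase, at 1.42 ± 0.23 and 5.75 ± 0.48 TPM. Their log2 differences were 1.53, 1.46 and 1.48, close to the 1.52 of B4GALT1, which is what the measure selects. For DIRAS3, a low gene, this closeness holds only with 1 TPM added. Its ratio of mean TPM was 4.06, beside 2.87 for B4GALT1. With 0.1 TPM added instead, its log2 difference was 1.96, beside 1.52 for B4GALT1.

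Along chromosome 9, the tested genes next to B4GALT1 had smaller differences. Of 13 within 500 kb, 0 were called higher and 1 lower by limma, beside 11.2% and 4.61% of all tested genes. At an unadjusted p under 0.05, 3 were higher and 2 lower, beside 5293 and 2335 of all 14778 tested genes. NFX1 and ANXA2P2, with differences of 0.27 and 0.16, were higher at an adjusted p under 0.05. BAG1 and AQP3 were lower at that threshold. ANXA2P2, SUGT1P1 and SNX18P7 among the 13 are annotated as pseudogenes, so their reads are less certain. The median of the 13 genes was 0.14, near that of all tested genes. SMU1, the nearest at 27.4 kb, had -0.05 (standard error 0.0826), and DNAJA1, APTX, BAG1 and CHMP5 had 0.23, -0.11, -0.25 and 0.08. AQP3, an aquaporin, fell from 13.5 ± 1.35 to 8.04 ± 0.73 TPM (-0.68, relative -0.81, limma, adjusted p = 0.00154). Around B4GALT4, 8 genes were tested, of which UPK1B (0.96) and IGSF11 (1.06) were called higher and TIMMDC1 (-0.87) lower, with a median of -0.17. Called neighbours were not particular to B4GALT4. Higher and lower were 0 and 1 of 13 for B4GALT2, and 0 and 1 of 17 for B4GALT3. They were 2 and 0 of 17 for B4GALT5, 1 and 0 of 5 for B4GALT6, and 1 and 1 of 20 for B4GALT7. With so few neighbours, these counts are read beside the 11.2% and 4.61% of all tested genes only as a description.

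**Figure D5:**
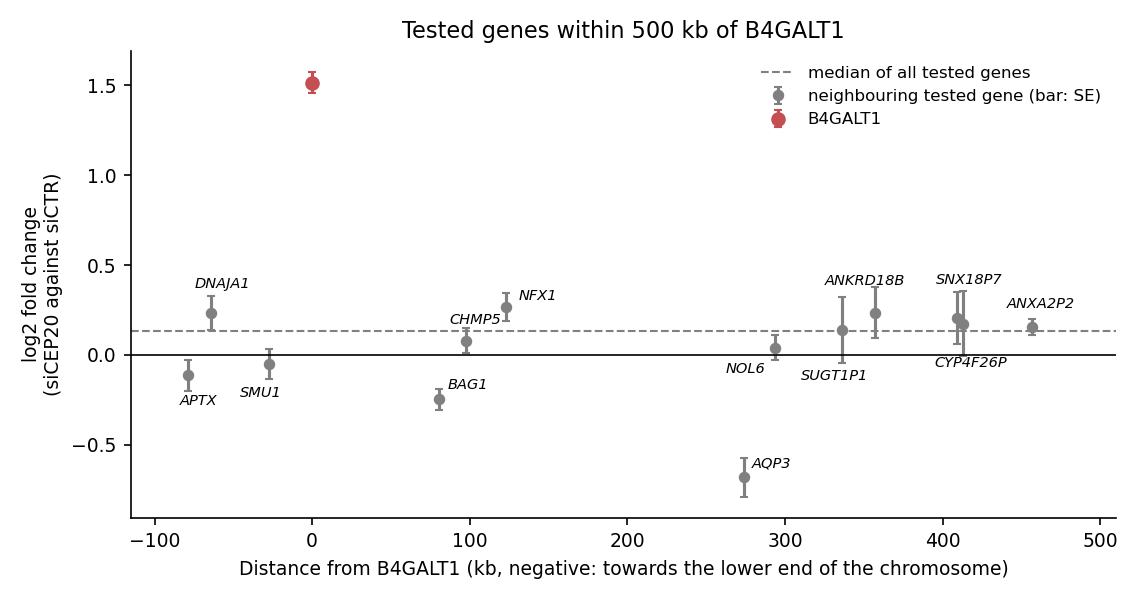
Log2 difference (siCEP20 against siCTR, bar: standard error) of B4GALT1 (red) and of the 13 tested genes within 500 kb (grey), by distance in kb from the gene. B4GALT1 stands at 1.52, and its neighbours lie between -0.68 (AQP3) and 0.27 (NFX1).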

How the data were processed

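RNA-seq was analysed for 3 siCEP20 and 3 siCTR samples of A549 cells. The authors trimmed reads with fastp 0.20.1, aligned them to hg38 with HISAT2 2.1.0, quantified them with StringTie 2.0 and deposited TPM per Ensembl gene; annotation release and strand setting are not given in the sources used here. Symbols and positions came from GENCODE 44 (60370 of 60624 genes matched), promoter windows from RefSeq.

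The 14778 genes averaging at least 1 TPM were compared on log2(TPM + 1) in R 4.3.3 by limma 3.58.1 (lmFit, then eBayes, trend on). Libraries were not rescaled and no replicate term was fitted, with Benjamini-Hochberg adjustment over all of them. DESeq2, which the authors used, needs counts. The fit was tested on simulated data. Nothing in the labels says that replicates were separate cultures, so p-values measure the spread between these samples. For a single gene an exact permutation test of 3 against 3 cannot go below p = 0.1.

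Members and the 12 partner lists were chosen with earlier results of these data known. Named were all members, CEP20, the 3 genes of each list with the smallest adjusted p, 3 genes most like B4GALT1, and genes overlapping a member, except 3 partner genes that count in their lists but are not reported here; neighbours, UGCG, SPPL3, the 500 kb window and the ratios were added after values were seen. Alternative settings were quantile normalization, median-of-ratios scaling, a length and GC correction (loess, span 0.5; 14737 genes), a replicate block, eBayes with the trend off, a pseudocount of 0.1, no filter or a filter at 5 TPM, adjusted p alone, and leaving out each library. Python 3.11.15 and matplotlib 3.10.9 were used for tables and figures.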

Additional observations from a re-analysis of the deposited data

How the results depend on the processing

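B4GALT1 had a log2 difference of 1.36 to 1.56 and was called in 14 of 14 alternatives, and B4GALT4 (0.38 to 0.57) kept an adjusted p under 0.05 in 14 of 14 and was called in 0. B4GALT2 (0.09 to 0.29) missed that threshold with median-of-ratios scaling and without siCEP20 replicate 2, and B4GALT7 ranged from 0.03 to 0.26. The direction of 3 members depended on the processing, and the cause was not tested. B4GALT3 was at -0.039 with median-of-ratios scaling, and ranged from -0.0195 (without siCEP20 replicate 2) to 0.206 (without siCEP20 replicate 3) with 1 library left out. B4GALT5 was at -0.011 after the length and GC correction. B4GALT6 was above 0 in 4 alternatives, each with 1 library left out, and ranged from -0.19 (without siCEP20 replicate 2) to 0.165 (without siCEP20 replicate 3). With an adjusted p under 0.05 alone, 3 members counted as higher, as did 19 partner genes, and 16 partner genes as lower. Of all tested genes, 30.2% were higher and 13.2% lower at that threshold. Partner genes called higher by limma numbered 0 with median-of-ratios scaling, beside 5.91% of all tested genes. They numbered 0 with quantile normalization, beside 6.25%, and 1 after the length and GC correction, beside 6.69%. With 1 library left out they ranged from 1 (without siCTR replicate 1) to 5 (without siCTR replicate 2), counts given without such a share. The median of all tested genes moved from 0.13 to -0.0059 with median-of-ratios scaling, and other causes were not tested. MGAT1 lost its call without siCTR replicate 2 (-0.57) or siCEP20 replicate 3 (-0.54), and LGALS1 with quantile normalization (-0.41) and the length and GC correction (-0.50), by the fold threshold alone, since both kept an adjusted p under 0.05 in 14 of 14 alternatives. The share of B4GALT1 differed by 20.45 to 22.01 percentage points with 1 library left out. Same-numbered libraries deviated with correlations of 0.157, -0.0614 and -0.0623, so the numbers were not taken as pairs. Of the differently numbered libraries, siCTR 2 with siCEP20 3 had 0.17 and siCTR 3 with siCEP20 2 had 0.104, and the rest were negative. Whether the samples were paired in another order was not tested. With the replicate number as a block, 1 member was called higher and 0 lower, and 3 and 6 partner genes, as without it. Of all tested genes, 11.2% were then called higher and 4.7% lower. Depth is unknown, which limits what can be said of low genes such as LALBA or B4GALT1-AS1.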
